A study of Mus musculus with 65 samples.

Results

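Of the 2204 regions on the 19 mouse autosomes that carried a wild-type peak of HORMAD1 or IHO1, 601 lay at neither a DNA break hotspot nor a CTCF peak. These 601 are called outside regions here. They were chosen by merging 3112 overlapping or separate HORMAD1 and IHO1 peaks and leaving out every merged region that shared 1 bp or more with a wild-type DMC1 hotspot or a wild-type CTCF peak. The other merged regions were 764 at a CTCF peak only, 745 at a hotspot only and 94 at both. The rule used the wild-type HORMAD1, IHO1, DMC1 and CTCF lists, so the presence of HORMAD1 or IHO1 and the absence of hotspots and CTCF are given as a description. No other list was used by the rule, but the other lists are not independent of it. The knockout lists of HORMAD1 and IHO1 are of the proteins that chose the regions. Lists found mostly at hotspots, such as DMC1 of Hormad1KO, are low here partly because hotspots were left out.

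The lists come from chromatin immunoprecipitation and sequencing of mouse testis, with 1 list of peaks per protein and genotype. The wild type was C57BL/6JCrl, and the mutants carried the alleles B6;129P2-Prdm9tm1Ymat/J (Prdm9KO), Spo11tm1Mjn (Spo11KO), Mei4tm1Bdm (Mei4KO), Iho1tm1.2Atot (Iho1KO) or Hormad1tm1.2Atot (Hormad1KO). In every genotype, male pups had received WIN 18,466, which blocks the making of retinoic acid, from 1.5 days of age for 7 to 10 days and then retinoic acid, so that spermatogonia entered meiosis together. Testes were taken 8 days after that injection, and the labels give 80 to 95% of the cells as leptotene and zygotene spermatocytes. Peak lists hold no expression values, so the cell type could not be checked against marker levels. Most groups had 2 samples, SYCP3 in Prdm9KO, Spo11KO and Iho1KO had 1, and no group had a second list, so no difference between genotypes has a replicate check.

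Meiotic cells cut their own DNA to start recombination. SPO11 makes the breaks, and MEI4 and IHO1 belong to the complex that allows it to act. HORMAD1 is a HORMA-domain protein of the chromosome axis that recruits IHO1, and SYCP3 is a filament-forming protein of the same axis. PRDM9 marks the sites where breaks form in mice, DMC1 coats the single-stranded DNA at those breaks, and CTCF is a zinc finger protein that anchors chromatin loops. Arrays of the mo-2 minisatellite near the ends of a few mouse autosomes are known to gather MEI4 and IHO1.

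Because 21.5% of the outside regions lay at a coding gene start and histone genes were the fixed gene list with the largest share of members among them, the 4 promoters shown are of genes in that position, 2 of them histone genes. They are printed from 250 bases before to 50 bases after the RefSeq start site on GRCm38.p6, which is the sequence behind mm10. H2ac22, a core histone gene, reads on the minus strand at chr13:21787199-21787498. H4c4, another core histone gene, reads on the plus strand at chr13:23581318-23581617. Pld6, which encodes a phospholipase of the piRNA pathway, reads on the minus strand at chr11:59787608-59787907 and was the one gene of the germline list at an outside region. Ccr1, a chemokine receptor gene, reads on the minus strand at chr9:123968643-123968942 and lies in the cluster with the most outside regions. The histone promoters were picked after their values were seen. Capitals mark every match on either strand to 5 motifs. The E-box was searched as CACGTG. The GC box was searched as GGGCGG. The CCAAT box was searched by those 5 letters. The TATA box was searched as TATAAA. A core of the CTCF motif was searched as AGGGGGC, whose last letters can also begin a GC box.
H2ac22: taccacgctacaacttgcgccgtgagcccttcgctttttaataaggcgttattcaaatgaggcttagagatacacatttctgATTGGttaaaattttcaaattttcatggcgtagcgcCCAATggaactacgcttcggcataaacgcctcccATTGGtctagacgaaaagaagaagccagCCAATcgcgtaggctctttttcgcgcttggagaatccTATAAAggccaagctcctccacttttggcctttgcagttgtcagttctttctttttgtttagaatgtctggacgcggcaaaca
H4c4: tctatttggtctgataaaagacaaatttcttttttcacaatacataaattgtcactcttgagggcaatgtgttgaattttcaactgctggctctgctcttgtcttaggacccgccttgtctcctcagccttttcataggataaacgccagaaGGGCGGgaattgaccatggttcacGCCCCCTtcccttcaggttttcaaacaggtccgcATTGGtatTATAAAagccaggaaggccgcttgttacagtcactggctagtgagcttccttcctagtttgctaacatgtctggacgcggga
Pld6: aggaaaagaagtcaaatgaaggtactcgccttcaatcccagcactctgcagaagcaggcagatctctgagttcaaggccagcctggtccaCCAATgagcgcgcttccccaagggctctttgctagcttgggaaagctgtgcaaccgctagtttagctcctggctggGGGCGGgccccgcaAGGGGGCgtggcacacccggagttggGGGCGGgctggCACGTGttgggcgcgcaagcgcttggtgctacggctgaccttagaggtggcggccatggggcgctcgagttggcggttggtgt
Ccr1: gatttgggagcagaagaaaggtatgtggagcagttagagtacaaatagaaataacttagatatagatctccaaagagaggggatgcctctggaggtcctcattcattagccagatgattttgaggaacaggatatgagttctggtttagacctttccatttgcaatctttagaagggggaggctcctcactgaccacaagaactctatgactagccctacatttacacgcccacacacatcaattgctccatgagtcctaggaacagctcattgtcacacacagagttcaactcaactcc

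The H2ac22 promoter held 4 CCAAT boxes and a TATA box that begins 33 bases before the start site, and the TATA box of H4c4 begins 32 bases before it. The Pld6 promoter held a CTCF core 70 bases before the start, and the nearest CTCF peak was 6390 bp from its region. H4c4 also held a CTCF core, 74 bases before the start, and its region was 9792 bp from a CTCF peak. Ccr1 held none of the 5 motifs. Among 103 promoters of 97 genes that overlapped an outside region, the CCAAT box was in 38.8%, the TATA box in 11.7%, the E-box in 7.77%, the GC box in 57.3% and the CTCF core in 16.5%. Among all 20085 autosomal coding promoters of the same length, the shares were 38.1%, 12.7%, 7.89%, 47.0% and 13.1% in the same order. The interval of the outside promoters (47.6 to 66.4% for the GC box) excluded the share of all promoters for the GC box but for none of the other 4 motifs. Some of the 103 promoters share bases, such as those of Med29 and Paf1, so the same GC box can count more than once. With a lower limit so near 47.0%, the GC box difference is therefore uncertain. Of 10 histone promoters in outside regions, 8 held a CCAAT box and 5 a TATA box, against 58 and 35 of all 70 autosomal histone promoters. A match is only a run of letters and was not tested for binding.

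Of the outside regions, 188 carried HORMAD1 alone, 229 IHO1 alone and 184 both proteins. IHO1 alone made up 38.1% of them, against 23.0% of CTCF-only and 19.5% of hotspot-only regions. They were 413 to 18032 bp wide with a median of 2452 bp, while the medians were 1995.5 bp for CTCF-only and 4513 bp for hotspot-only regions. The widest outside region held both proteins over chr9:124135979-124154010, in no annotated gene. The widest with IHO1 alone covered chr9:123753337-123771273 at the start of Ccr9, a chemokine receptor gene. The widest with HORMAD1 alone covered chr13:119707894-119720992 in the bodies of Hmgcs1, a cholesterol synthesis gene, and Nim1k, a kinase gene.

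Outside regions lay closer to CTCF peaks than hotspot-only regions, which by the rule also hold none. The median distance to the nearest CTCF peak was 16.5 kb (quartiles 6.43 and 37.2 kb) for outside regions and 28.3 kb (9.88 and 83.7 kb) for hotspot-only regions. Within 10 kb of a CTCF peak lay 211 of the 601 outside regions, or 35.1% (Wilson 95% interval 31.4 to 39.0), against 25.6% of hotspot-only regions. The difference was 9.47 percentage points (Newcombe 95% interval 4.53 to 14.4), and 3.91 points (-0.03 to 7.93) when only CTCF peaks in the upper 50% by the authors' score were used. Within 1 kb the classes did not differ beyond counting error, at 19 and 20 regions. At the limit of the rule, the outside region nearest to a CTCF peak stood 83 bp away, at chr13:119725997-119728900, and the rejected region with the least overlap shared 49 bp with one. The farthest, at chr14:91365065-91366318, lay 931.078 kb from any CTCF peak and 253 bp from a hotspot. The other 2 of the 3 farthest were also beside hotspots, at 667 bp and 16 bp.

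A group of outside regions sat just beside hotspots. Of the 601, 70 (11.6%, 9.32 to 14.5) were within 1 kb of a DMC1 hotspot, against 16 of 764 CTCF-only regions (2.09%). The median distance to a hotspot was 34.1 kb for outside and 50.3 kb for CTCF-only regions, and 26.0% against 14.9% were within 10 kb. The nearest, in the body of Dock3 at chr9:107050362-107051041, stood 3 bp from a hotspot, and the rejected region with the least overlap shared 7 bp with one. Within 100 bp of the limit were 19 outside and 27 rejected regions.

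**Figure D1:**
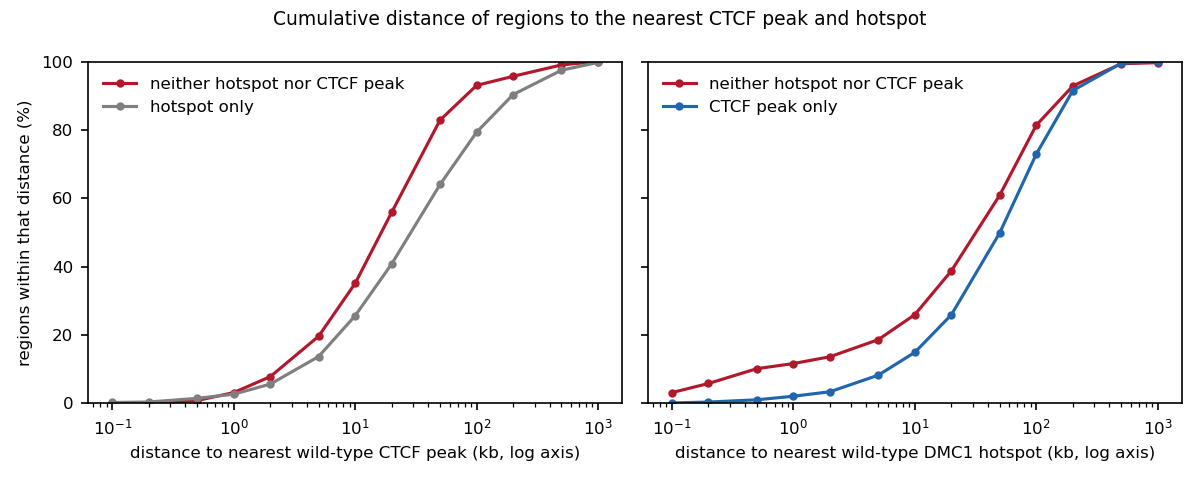
Cumulative share of regions (y axis, percent) within a given distance (x axis, kb, log scale) of the nearest wild-type CTCF peak (left, outside and hotspot-only regions) and DMC1 hotspot (right, outside and CTCF-only regions). Outside regions run above the other class from 10 kb to 100 kb in both panels, and 11.6% of them are already within 1 kb of a hotspot.

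The regions were more often at gene starts than CTCF-only or hotspot-only regions, but not than the 94 regions at both, where the share was 24.5% (16.9 to 34.0). A coding gene start, with 1 kb to each side, was at 129 of the 601 outside regions (21.5%, 18.4 to 24.9), while the share over all 2204 merged regions was 13.2%. The share was 10.3% for CTCF-only and 7.92% for hotspot-only regions, so that outside regions were higher by 11.1 points (7.23 to 15.1) and 13.5 points (9.77 to 17.4). With a 1 kb window at each centre in place of the whole region, the first of these was 5.11 points (1.71 to 8.64), and in the narrower 50% of regions 7.15 points (2.80 to 11.9). A further 178 (29.6%) lay in the body of a coding gene, 58 (9.65%) in another annotated gene and 236 (39.3%) in no gene. For comparison, 51.0% of CTCF-only regions lay in no gene and 47.9% of hotspot-only regions in a coding gene body. HORMAD1-only, IHO1-only and both-protein regions were at gene starts in 24.5%, 21.4% and 18.5%, which did not differ beyond counting error. Of the 129 regions, 34 were at a gene whose strand was not given, where either end counted as a start.

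Histone genes, most of which lie in clusters and are expressed in S phase, were the clearest group at these starts. Outside regions held the start of 13 of 75 autosomal histone genes (17.3%, 10.4 to 27.4), against 145 of all 20665 autosomal coding genes, or 0.702%. The 13 were H1f6, H2ac22, H2ac7, H2bc22, H2bc6, H2bc7, H3c4, H4c17, H4c18, H4c2, H4c3, H4c4 and H4c8. They shared 8 regions on chromosome 13, so they were not separate observations. H1f6, a testis-specific linker histone gene, shared its region with H4c3. CTCF-only regions held 8 more histone starts (10.7% of the 75), against 92 of all 20665 coding genes, or 0.445%. A high share of histone starts was thus not particular to outside regions. The region of H4c17 at chr13:21812005-21812815 was found in 13 of the other 19 lists, including all 4 knockout lists of HORMAD1 and all 4 of IHO1, but not in the wild-type lists of SYCP3 and MEI4. The region of H2bc6 and H4c4 at chr13:23580655-23587170, which includes the H4c4 promoter printed above, was in 11 lists. The region of H2ac22 and H2bc22 was in 9 lists and that of H2ac7 and H2bc7 in 3.

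None of 46 meiotic prophase genes had its start at an outside region, which allows a share of up to 6.52% (3 counts of the total, for counting error only). Of 24 germline genes, 1 did (Pld6, in IHO1 Mei4KO and in SYCP3 of Spo11KO, Mei4KO and Iho1KO). The zinc finger genes named Zfp gave 3 of 391 (Zfp296, Zfp36l2 and Zfp703). The protocadherin genes, which encode clustered neuronal adhesion proteins, had 0 of 67 starts at outside regions (up to 4.48%) and 10 of 67 at CTCF-only regions. None of 1104 olfactory receptor genes did (up to 0.272%). Marker genes of other testis cells gave 0 of 10 for spermatogonia, 0 of 10 for Sertoli cells (up to 30% each) and 1 of 10 for Leydig and myoid cells. That gene was Cyp11a1, which encodes the enzyme that starts steroid synthesis from cholesterol, and its region was in 8 other lists.

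In the wild type, SYCP3 was found at 223 outside regions (37.1%, 33.3 to 41.0), against 53.5% of all merged regions. CTCF-only regions had SYCP3 at 36.6%, which differed by 0.46 points (-4.67 to 5.62), and hotspot-only regions at 83.0%. The comparison with CTCF-only regions turned with width. In the narrower 50% of all merged regions, outside regions were higher by 7.57 points (1.00 to 14.2), and in the wider 50% the difference was -13.5 points (-21.8 to -4.93). Without the regions in the last 2 Mb of chromosome 9 it was -3.32 points (-8.49 to 1.94). SYCP3 went with the presence of both proteins. It was at 60.9% of the 184 regions with HORMAD1 and IHO1 together, 31.9% of those with HORMAD1 alone and 22.3% of those with IHO1 alone. The excess of both over HORMAD1 alone was 29.0 points (18.9 to 38.2), and that over IHO1 alone was 38.6 points (29.3 to 47.0).

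MEI4, the partner of IHO1 in the break machinery, was found at 55 outside regions in the wild type (9.15%, 7.10 to 11.7), against 26% of all merged regions. It was at 0.92% of CTCF-only regions and at 62.3% of hotspot-only regions, so that outside regions exceeded CTCF-only regions by 8.24 points (5.97 to 10.9). Regions with both proteins had MEI4 in 16.3%, those with IHO1 alone in 7.42% and those with HORMAD1 alone in 4.26%. Without the end of chromosome 9 these shares were 4.67%, 3.79% and 3.80%, and the both-protein share differed from neither of the others beyond counting error. Of the 55, 33 were in the last 2 Mb of chromosome 9, and elsewhere MEI4 was at 22 of 545 outside regions (4.04%), 3.38 points (1.77 to 5.41) above CTCF-only regions.

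HORMAD1 stayed at many outside regions when break proteins were missing. Among the 372 outside regions with wild-type HORMAD1, a HORMAD1 peak was found at 184 in Prdm9KO (49.5%, 44.4 to 54.5), against 36.2% of all 1630 merged regions with HORMAD1. In Spo11KO it was found at 241 (64.8%, 59.8 to 69.5, against 66.4% of all), in Iho1KO at 218 (58.6%, 53.5 to 63.5, against 49.8%) and in Mei4KO at 145 (39.0%, 34.2 to 44.0, against 33.1%). All 4 comparisons start from the same wild-type regions. The lists differed in length, with 969 autosomal HORMAD1 peaks in Prdm9KO, 2849 in Spo11KO, 3098 in Iho1KO and 5193 in Mei4KO. The longest list thus held the fewest of the 372. In all 4 knockouts the share lay between the other kinds, below CTCF-only regions and above hotspot-only regions. CTCF-only regions kept HORMAD1 in 62.9%, 84.5%, 84.7% and 59.5% in Prdm9KO, Spo11KO, Iho1KO and Mei4KO, and hotspot-only regions in 2.33%, 49.5%, 10.5% and 3.83%. The excess over hotspot-only regions in Spo11KO, 15.3 points (8.90 to 21.4), was 4.30 points (-4.55 to 12.7) in the wider 50% of regions. The difference from CTCF-only regions was -13.5 points (-19.8 to -7.03) in Prdm9KO and -26.1 points (-31.8 to -20.3) in Iho1KO. Among regions over 5 kb from other CTCF peaks and hotspots, it was -8.08 points in Prdm9KO (-15.5 to -0.64) and -12.2 points in Spo11KO (-18.8 to -5.96). A HORMAD1 peak was present in all 4 knockouts at 56 outside regions (15.1%) and in none at 64 (17.2%), against 31.6% and 3.06% of CTCF-only regions.

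IHO1 was kept at smaller shares than HORMAD1 in Prdm9KO and Spo11KO, while in Mei4KO the intervals of the shares overlapped. The regions and list lengths differ between the proteins, and this difference was not tested. Among 413 outside regions with wild-type IHO1, the list of Prdm9KO held 95 (23.0%, 19.2 to 27.3, against 17.2% of all 1434 merged regions with IHO1), Spo11KO 138 (33.4%, 29.0 to 38.1, against 52.9%), Mei4KO 144 (34.9%, 30.4 to 39.6, against 29.6%) and Hormad1KO 19 (4.60%, 2.96 to 7.07, against 30.9%). Those lists had 347, 2635, 1006 and 1788 autosomal peaks. In Prdm9KO, 47 of the 95 were in the last 2 Mb of chromosome 9, and elsewhere the share was 13.3% of 361. In Hormad1KO, 71.5% of hotspot-only regions with IHO1 kept it, and the outside regions differed from them by -66.9 points (-70.9 to -62.2). CTCF-only regions were at 1.42%, a difference of 3.18 points (0.86 to 5.77) that was 1.97 (-0.16 to 4.32) in a 1 kb window at each centre. In Mei4KO the order was the opposite, with 2.79% of hotspot-only regions, 34.9% of outside regions and 60.0% of CTCF-only regions. The difference between outside and CTCF-only regions was -8.91 points in Prdm9KO (-14.9 to -2.86) and -10.3 points in Spo11KO (-16.8 to -3.72). The value in Prdm9KO was -18.1 points (-23.7 to -12.4) without the end of chromosome 9. Neither was called in the narrower 50% of regions, at -1.89 (-9.67 to 6.15) and -5.26 points (-13.8 to 3.53), or for regions over 5 kb from other CTCF peaks and hotspots, at -4.07 and -6.22 points. No knockout list held IHO1 at 181 of the 413 (43.8%), and all 4 held it at 2.

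**Figure D2:**
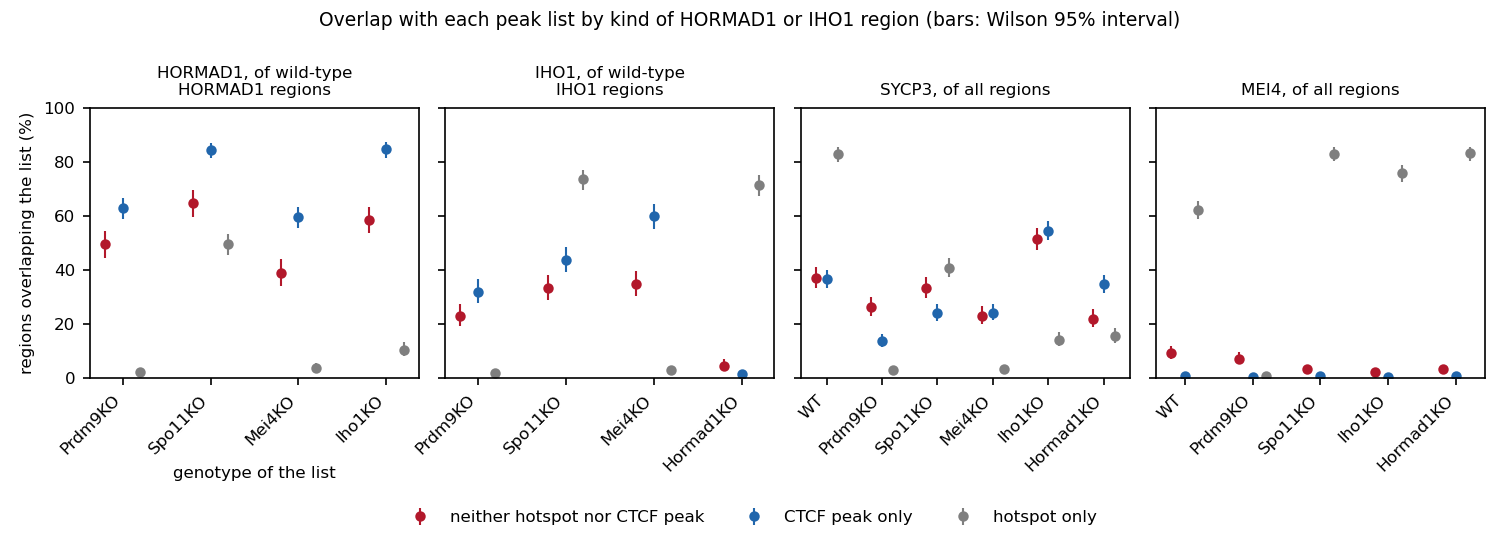
Share of regions (y axis, percent, with Wilson 95% intervals as bars) that overlap a peak list, by genotype of the list (x axis), for outside regions (red), CTCF-only regions (blue) and hotspot-only regions (grey). Outside regions lie between the other kinds in the 4 HORMAD1 lists, and IHO1 of Hormad1KO is at 4.60% of them against 71.5% of hotspot-only regions.

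In some lists, regions with both proteins kept each of them at a different share than regions with a single one. HORMAD1 was kept in Prdm9KO at 57.1% of both-protein regions and at 42.0% of HORMAD1-only regions, a difference of 15.0 points (4.88 to 24.8). Without the end of chromosome 9, which held 34 of the 184 both-protein and 4 of the 188 HORMAD1-only regions, it was 7.91 points (-2.77 to 18.4). In Mei4KO the order was turned, at 30.4% and 47.3% (-16.9 points, -26.3 to -7.00), and the difference was -10.7 points (-21.0 to -0.11) without that end. For HORMAD1 in Spo11KO and Iho1KO the differences were within counting error, at 7.31 (-2.39 to 16.8) and 3.41 points (-6.55 to 13.3). IHO1 was kept more at both-protein than at IHO1-only regions in Prdm9KO (34.8% against 13.5%), Spo11KO (50% against 20.1%) and Mei4KO (46.7% against 25.3%). In Prdm9KO that difference of 21.2 points was 11.5 points (4.24 to 19.2) without the end of chromosome 9. In Hormad1KO the shares were 5.43% and 3.93%, within counting error.

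Many regions with a single protein in the wild type carried its partner in a knockout list. Of the 188 HORMAD1-only outside regions, 92 (48.9%, 41.9 to 56.0) had an IHO1 peak in at least 1 knockout, among them 74 (39.4%) in Mei4KO, against 52.2% and 43.7% of the 341 HORMAD1-only regions at CTCF peaks. Of the 229 IHO1-only outside regions, 134 (58.5%, 52.0 to 64.7) had a HORMAD1 peak in at least 1 knockout, against 87.5% of the 176 IHO1-only regions at CTCF peaks. By genotype, that HORMAD1 was at 31.9% in Mei4KO, 28.4% in Spo11KO, 27.9% in Iho1KO and 11.8% in Prdm9KO.

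SYCP3 was found at outside regions in every knockout. It was at 159 of 601 in Prdm9KO (26.5%, against 13.4% of all merged regions), 201 in Spo11KO (33.4%, against 33.2%), 139 in Mei4KO (23.1%, against 16.5%), 309 in Iho1KO (51.4%, against 38.9%) and 132 in Hormad1KO (22.0%, against 24.5%). These lists had 576, 2330, 1109, 5309 and 786 autosomal peaks, and the wild-type list had 1847. Outside regions had more SYCP3 than CTCF-only regions in Prdm9KO, by 12.7 points (8.44 to 17.0), or by 6.60 points (2.51 to 10.8) without the end of chromosome 9. They had less in Hormad1KO, with a difference of -12.9 points (-17.5 to -8.06). In Spo11KO the excess was 9.36 points (4.53 to 14.2), and 4.66 points (-0.15 to 9.53) without the end of chromosome 9. In Mei4KO and Iho1KO the differences were -1.09 (-5.58 to 3.49) and -3.17 points (-8.48 to 2.16). Without the end of chromosome 9 the value in Iho1KO was -6.88 points (-12.3 to -1.38). Of the 378 outside regions without SYCP3 in the wild type, 165 (43.7%) had it in Iho1KO and 64 (16.9%) in Prdm9KO. Of the 484 CTCF-only regions without it in the wild type, 38.4% had SYCP3 in Iho1KO and 3.93% in Prdm9KO.

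MEI4 in the knockouts was rare at outside regions. It was at 43 of 601 in Prdm9KO (7.15%, against 2.45% of all merged regions), 19 in Spo11KO (3.16%, against 32.3%), 14 in Iho1KO (2.33%, against 28.7%) and 19 in Hormad1KO (3.16%, against 31.9%). The shares over all merged regions include hotspot-only regions, which the rule leaves out. Those had MEI4 at 83.1% in Spo11KO, 76.0% in Iho1KO and 83.2% in Hormad1KO. The Prdm9KO list of MEI4 had only 60 autosomal peaks. Of its 43 outside regions, 39 were in the last 2 Mb of chromosome 9, and 4 of 545 (0.73%) were elsewhere.

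Gene-start regions differed from the other outside regions in many lists. For HORMAD1 in Prdm9KO, Spo11KO and Iho1KO, CTCF-only regions showed the same split. SYCP3 in the wild type was at 22.5% of the 129 gene-start regions and 41.1% of the other 472, a difference of -18.6 points (-26.4 to -9.57). The knockout lists of SYCP3 were the reverse, with 39.5% against 22.9% in Prdm9KO (16.7 points, 7.69 to 26.0), 45.7% against 30.1% in Spo11KO, 36.4% against 19.5% in Mei4KO and 64.3% against 47.9% in Iho1KO. Hormad1KO gave 20.2% and 22.5%, within counting error. At CTCF-only regions the same split gave 41.8% and 22.0% in Spo11KO, a difference of 19.7 points (8.98 to 31.1), and did not go past counting error in Prdm9KO (7.26 points, -0.61 to 17.7), Mei4KO (21.5% and 24.5%) or Iho1KO (57.0% and 54.3%). In the wild type, CTCF-only regions had SYCP3 at 26.6% and 37.8% (-11.2 points, -20.5 to 0.01), the same direction as outside regions. HORMAD1 was kept at fewer gene-start regions in Prdm9KO (31.2% of 80 against 54.5% of 292), Spo11KO (48.8% against 69.2%) and Iho1KO (46.2% against 62.0%). CTCF-only regions had the same order in these lists, with gene-start minus other differences of -22.6, -23.1 and -19.1 points, all of them called. In Mei4KO HORMAD1 was kept at more of the outside gene-start regions, 50% against 36.0%, a difference of 14.0 points (1.94 to 26.0). At CTCF-only regions that difference was 2.21 points (-12.0 to 14.9), within counting error. IHO1 in Prdm9KO was kept at 13.3% of 83 gene-start regions and 25.5% of 330 others, and in the other 3 knockouts its difference was within counting error.

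**Figure D3:**
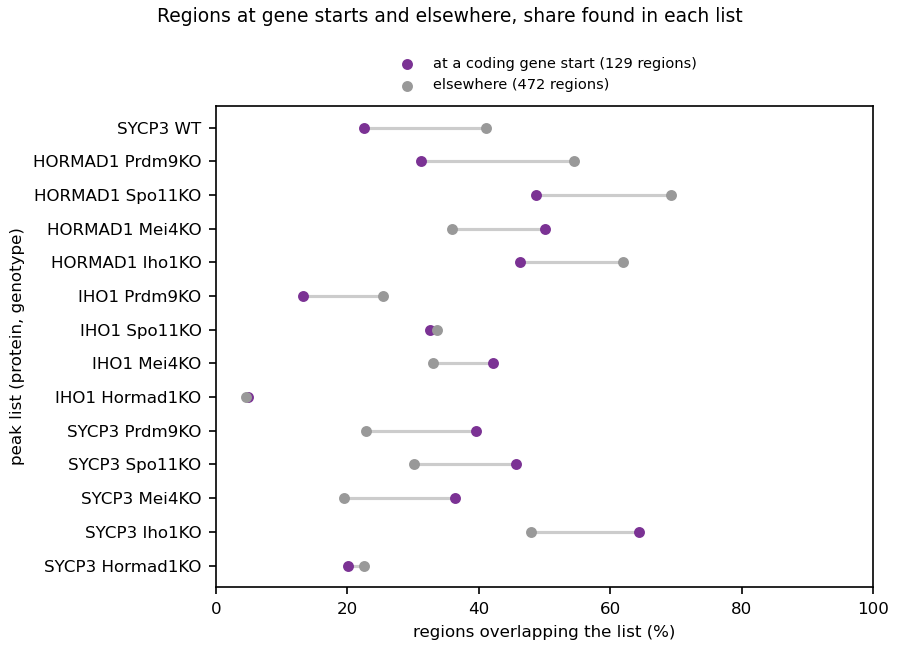
Share of outside regions (x axis, percent) found in each peak list (y axis), for the 129 at a coding gene start (purple) and the 472 elsewhere (grey). For HORMAD1 and IHO1, only regions with that protein in the wild type count. Purple points lie right of grey ones for SYCP3 in Prdm9KO, Spo11KO, Mei4KO and Iho1KO and left of them for wild-type SYCP3.

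The regions were spread over all 19 autosomes but gathered at the end of chromosome 9. The last 2 Mb of that chromosome, counted back from the last position in any list, held 56 outside regions (9.32% of all), over chr9:123685675-124494993. The ends of chromosomes 4 and 13 held 5 each, and the distal ends of the other 16 chromosomes 5 in all. Apart from the distal end, chromosome 9 had 24 and the others between 12 and 58. The same 2 Mb held 26 CTCF peaks and 22 hotspots, with 3 CTCF-only and 8 hotspot-only regions. Over all autosomes, there were 764 CTCF-only regions for 31785 CTCF peaks and 745 hotspot-only regions for 13314 hotspots. Genes at these regions include the chemokine receptors Ccr1, Ccr2, Ccr3, Ccr9 and Xcr1. A cluster of 28 regions, each at most 50 kb from the next, lay in this stretch, and a second cluster of 21 covered chr9:124262547-124494993. Of all outside regions on the 19 autosomes, 453 had no other within 50 kb.

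**Figure D4:**
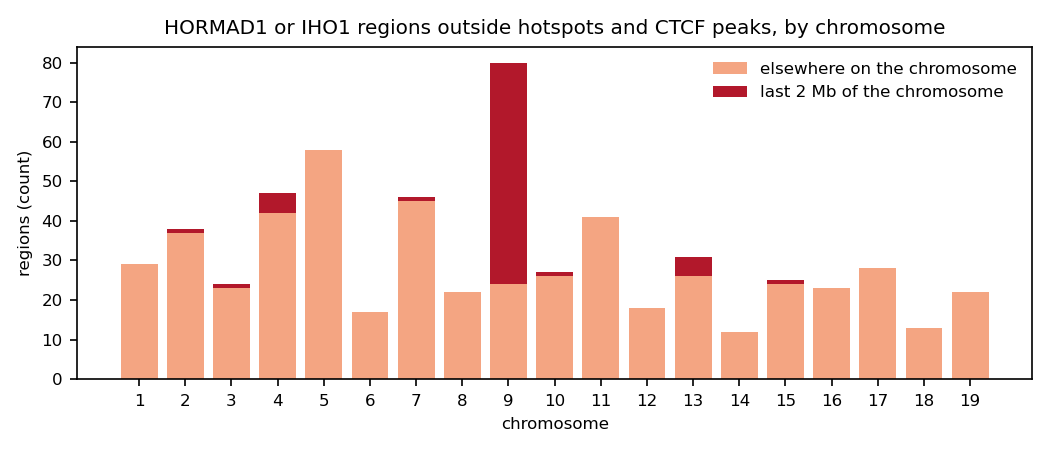
Number of outside regions (y axis) on each autosome (x axis), with the last 2 Mb of the chromosome in dark red and the rest in light red. Chromosome 9 stands apart with 80 regions, 56 of them in its last 2 Mb.

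Shares at the end of chromosome 9 differed from those at the other outside regions in many lists. Of the 56 regions, 34 held both proteins, 18 IHO1 alone and 4 HORMAD1 alone. MEI4 was at 33 (58.9%) in the wild type and at 39 (69.6%, 56.7 to 80.1) in Prdm9KO, and at 6 (10.7%) in Spo11KO, 8 (14.3%) in Hormad1KO and 0 of 56 in Iho1KO (up to 5.36%). The last did not differ beyond counting error from the 2.57% elsewhere. IHO1 was kept in Prdm9KO at 47 of 52 (90.4%), against 13.3% of 361 outside regions elsewhere, a difference of 77.1 points (65.4 to 83.4). In Mei4KO it was kept at 0 of 52 (up to 5.77%), against 39.9% elsewhere. HORMAD1 was kept at 36 of 38 in Prdm9KO (94.7%) and at 5 of 38 in Mei4KO (13.2%), and in Iho1KO at 57.9%, against 58.7% elsewhere. SYCP3 was at 89.3% in Prdm9KO and in Iho1KO and at 3.57% in Mei4KO, against 20%, 47.5% and 25.1% elsewhere. Regions so close together share their surroundings and are not independent, and read mapping in repeats was not tested. At the ends of chromosomes 4 and 13, wild-type MEI4 was at 2 of 5 regions each, and MEI4 of Prdm9KO at 2 of 5 and 0 of 5.

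The 70 outside regions within 1 kb of a hotspot differed from the other 531 in nearly every list, a split made after the distances were seen. Wild-type SYCP3 was at 57 of them (81.4%) and at 31.3% of the rest, a difference of 50.2 points (38.8 to 58.5). MEI4 was at 15 (21.4%) against 7.53%. HORMAD1 was kept at 3 of 43 in Prdm9KO (6.98%, against 55.0%) and at 5 of 43 in Spo11KO (11.6%, against 71.7%). IHO1 was kept at 3 of 53 in Prdm9KO (5.66%, against 25.6%) and 2 of 53 in Mei4KO (3.77%, against 39.4%). In Hormad1KO the order was turned, at 6 of 53 (11.3%) against 3.61%. SYCP3 in Iho1KO was at 5.71%, against 57.4% of the rest. A single one of the 70 was at a coding gene start. Without the regions within 1 kb of a hotspot, every called difference in HORMAD1 from CTCF-only regions was still called.

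**Figure D5:**
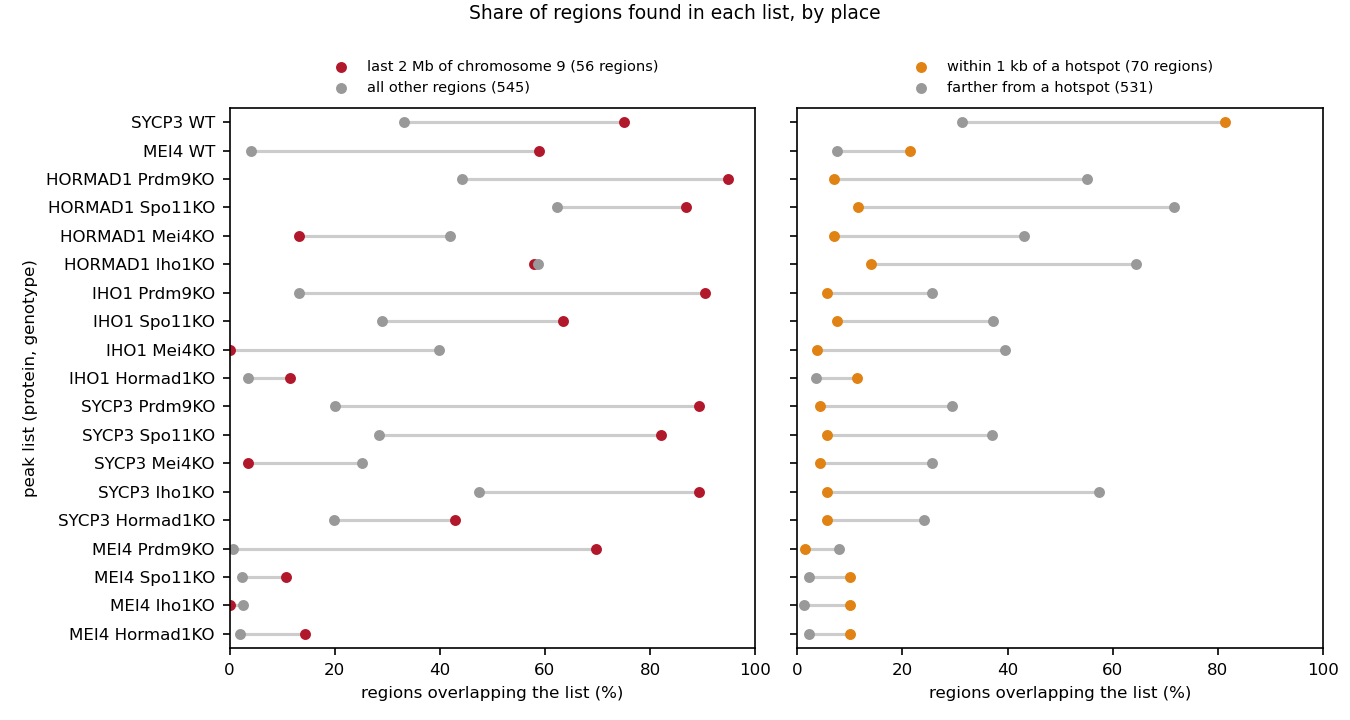
Share of outside regions (x axis, percent) found in each peak list (y axis). Left, the 56 in the last 2 Mb of chromosome 9 (red) and the other 545 (grey), and right, the 70 within 1 kb of a hotspot (orange) and the other 531 (grey). IHO1 of Mei4KO is at 0 at the end of chromosome 9, and HORMAD1 in all 4 knockouts is lower beside hotspots than farther away.

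The few regions that kept IHO1 without HORMAD1 were mostly of these kinds. Of 19, 6 were at the end of chromosome 9 and 6 elsewhere were within 1 kb of a hotspot, which left 7 others. Among those 7 were the regions of H4c17 and H4c18. Another was chr10:63316863-63319030 at Sirt1, a deacetylase gene, and Herc4, found in 11 lists. In the body of Muc6, a mucin gene, chr7:141638582-141639201 was found in 7.

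Outside regions differed in how many lists they recurred in. Among the other 19 lists of HORMAD1, IHO1, SYCP3 and MEI4, the median was 4, 42 regions were in none and 73 were in 10 or more. Both-protein regions had a median of 7, HORMAD1-only regions 4 and IHO1-only regions 2, and 37 of the 42 found in no other list were IHO1-only. CTCF-only regions had a median of 5. The 3 outside regions in 14 lists and the leading 2 of those in 13 were all at the end of chromosome 9. In 14 lists were chr9:124157924-124160554, chr9:124494002-124494993 and chr9:124329921-124330716, none in an annotated gene. In 13 were chr9:124271023-124286081 at Gm39469 and chr9:123967213-123975930, which spans the Ccr1 promoter printed above.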

How the data were processed

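Chromatin immunoprecipitation of HORMAD1, IHO1, MEI4, SYCP3, CTCF and DMC1 in testis was given as 24 peak lists, 1 per group. Reads were mapped with Bowtie2 to mm10 and peaks called with MACS2, per the submitters' processing notes, and the authors subtracted each protein's own-knockout signal, per the series' design text. Versions, thresholds and pooling of replicates are not given in the sources used here, and depth is unknown. Positions were used as deposited. The score of the CTCF list, deposited by the authors with no named scale, served to select its upper 50%, and the deposited signal values of the DMC1 lists are quoted as they are.

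Overlap of 1 bp, merging and distances were computed in Python 3.11.15 and tested on simulated data. Shares have Wilson and differences Newcombe 95% intervals, which cover counting error only and treat regions as independent. A difference is called where its interval excludes 0. Gene starts came from RefSeq on GRCm38.p6, and for 4208 of 20665 autosomal coding genes with no strand in the tables used here, both ends counted. The members and gene lists were chosen with earlier results of these data known. Named regions were the 5 found in most lists, the widest of each protein class, the 3 farthest from CTCF, those at the limits of the rule and those at genes of the fixed lists. Splits by hotspot distance and by the end of chromosome 9 were added after the data were seen. The ribosomal protein list is not reported here.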

Additional observations from a re-analysis of the deposited data

Results flagged for a closer look

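DMC1 of Hormad1KO was not used in the report's comparisons, yet hotspots of that list lay at 11 of the 601 outside regions, or 1.83% (Wilson 95% interval 1.03 to 3.25), none of which has a wild-type hotspot by the rule. This is above the 0.499% that 3 of 601 would give, and above the 1 of 764 CTCF-only regions (0.13%) in the same list. It is far below the share over all 2204 merged regions, 34.6%, and the 91.9% of hotspot-only regions. Of the 11, 8 were within 1 kb of a wild-type hotspot and 3 were farther away. The strongest by the authors' deposited value, 1631.5, was the region 3 bp from a wild-type hotspot in Dock3. The 3 farther regions had deposited values of 21 (in Nim1k, 34153 bp from a hotspot), 90.5 (on chromosome 4, 82651 bp) and 34 (at Gm39469, 15038 bp).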

How the results depend on the processing

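Of 359 recomputed values of 81 results, 319 kept their direction and their side of the threshold (an interval that excludes 0, or a count within 1.5 times). The rest are differences between kinds of region, in percentage points, and the cause was not tested. From CTCF-only regions, wild-type SYCP3 differed by 0.46 in the report, by 7.57 in the narrower and -13.5 in the wider 50% of regions, by -4.69 for regions over 5 kb from other CTCF peaks and hotspots, by -3.40 without chromosome ends and by -3.32 without the end of chromosome 9. SYCP3 of Mei4KO differed by -1.09, but by 0.68 over 5 kb, 0.90 without chromosome ends, 0.83 without the end of chromosome 9 and -5.03 without gene starts. SYCP3 of Iho1KO differed by -3.17, but by 0.78 over 5 kb, -6.43 without gene starts, -7.12 without chromosome ends and -6.88 without the end of chromosome 9. SYCP3 of Spo11KO differed by 9.36, but by 3.23 in the wider 50%, 4.12 without chromosome ends and 4.66 without the end of chromosome 9. IHO1 of Prdm9KO differed by -4.07 over 5 kb and -1.89 in the narrower 50%, and IHO1 of Spo11KO by -6.22 over 5 kb, -5.26 in the narrower 50% and -6.22 without regions within 1 kb of a hotspot. IHO1 of Hormad1KO differed by 1.97 in a 1 kb window and 2.72 in the wider 50%. MEI4 of Prdm9KO differed by 6.63, but by 0.38 without chromosome ends and 0.47 without the end of chromosome 9. From hotspot-only regions, SYCP3 of Spo11KO differed by -7.36, but by 13.6 in the narrower 50%, -4.68 with an overlap of 50%, -4.20 in a 1 kb window and -0.33 over 5 kb. In the wider 50%, HORMAD1 of Spo11KO differed by 4.30 and SYCP3 of Hormad1KO by 1.12, and MEI4 of Prdm9KO differed by 0.38 without chromosome ends. With the upper 50% of CTCF peaks by score, the share within 10 kb differed by 3.91. Between gene-start and other outside regions, IHO1 of Hormad1KO differed by 0.27, and by -0.92 without chromosome ends. Between both-protein and HORMAD1-only regions, without the end of chromosome 9, wild-type MEI4 differed by 0.86, HORMAD1 of Prdm9KO by 7.91, SYCP3 of Mei4KO by 13.2 and SYCP3 of Iho1KO by 6.57. Between both-protein and IHO1-only regions, wild-type MEI4 differed by 0.88 and IHO1 of Hormad1KO by -0.46 there.

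Depth is unknown, so absence from a list is not absence of the protein. No paired analysis was possible because each group has 1 list, and for the same reason there was no replicate to leave out.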
